A study of Sus scrofa with 21 samples.

Results

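The hearts of 3 naive pigs killed on postnatal day 28 were compared with those of 3 naive pigs killed on day 14. These 6 RNA-seq libraries are 6 of the 21 in a series on hearts of young pigs (Sus scrofa), and they were chosen by the control label and the day in their column names, with no use of any measured value. The other 15 libraries come from naive pigs of day 1 (2 pigs), day 3 (2 pigs) and day 7 (3 pigs), and from pigs infarcted on day 1 and killed on day 7 (3 pigs), day 14 (3 pigs) or day 28 (2 pigs). Infarction was made by tying off the left descending coronary artery for good. Each library is 1 pig, so replicates are separate animals.

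Naive is the labels' word for the 6 animals described here. The treatment text of the same labels says that age-matched normal pigs had the whole operation apart from the ligation, so whether these hearts had been operated on is not settled by the labels. All pigs were hand-reared on bovine colostrum, then a mix with sow's milk, then cow's milk, were given iron, and were housed in a warm incubator. RNA came from a piece of tissue at the place that matches the border zone of an infarct. No breed, sex or litter is given for any animal.

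A heart in the weeks after birth is known to pass from growth by cell division to growth by cell enlargement. Its cardiomyocytes exchange fetal for adult forms of sarcomere proteins, turn from glucose and lactate to fatty acids as fuel, and build up T tubules and intercalated discs, while fibroblasts lay down a collagen network and resident macrophages fill the tissue. In many mammals most of these exchanges take place early after birth, and the comparison of day 28 with day 14 asks which genes still differed over this later interval.

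The 6 libraries held between 51626718 and 74912650 counts, of which 15.8% to 30.9% fell on mitochondrially encoded genes. They did not group by age. The median Pearson correlation of log2 CPM (each gene's counts per 1000000 counts, scaled between libraries by TMM) was 0.970 over the 6 pairs of libraries of 1 age and 0.972 over the 9 pairs that joined a day 14 with a day 28 library. Of all 210 pairs in the series, the most alike were day 14 replicate 2 and day 28 replicate 1, at 0.991. Their counts differed by more than sampling noise (chi-square per degree of freedom 38.7, the smallest of all pairs), so they were not counted as 1 library.

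Several libraries stood apart from the rest. An unnamed gene, ENSSSCG00000035520, had 6.59 CPM in day 14 replicate 3 and 7.76 CPM in day 28 replicate 2, and 3054 to 4884 CPM in the other 4 naive libraries of these ages. The 2 low libraries, with 1 infarcted heart of day 7 and 1 of day 28, make up a set of 4 libraries set apart, and day 14 replicate 3 and day 28 replicate 2 were each other's nearest library (r = 0.979). For day 28 replicate 3 the nearest neighbour among all 21 was naive day 3 replicate 1 (r = 0.980). The correlations of day 28 replicate 3 with the other 5 libraries ran from 0.949 to 0.967. Whether its day 28 label is right could not be checked from the data used here, so each value from it stands under that label only. Day 14 replicate 1 held the highest or lowest value of the 6 libraries for 54.3% of the tested genes, day 28 replicate 3 for 48.4% and day 14 replicate 3 for 43.6%, against 15.3% to 23.1% for the other 3. Among 58 gene lists, day 14 replicate 1 had the highest mean level of the 6 for 23 and the lowest for 17, day 14 replicate 3 for 14 and 12, and day 28 replicate 3 for 10 and 21. Differences within the set of 4 are 1 library against 1 and those outside it 2 against 2, in log2 CPM and with no test.

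**Figure D1:**
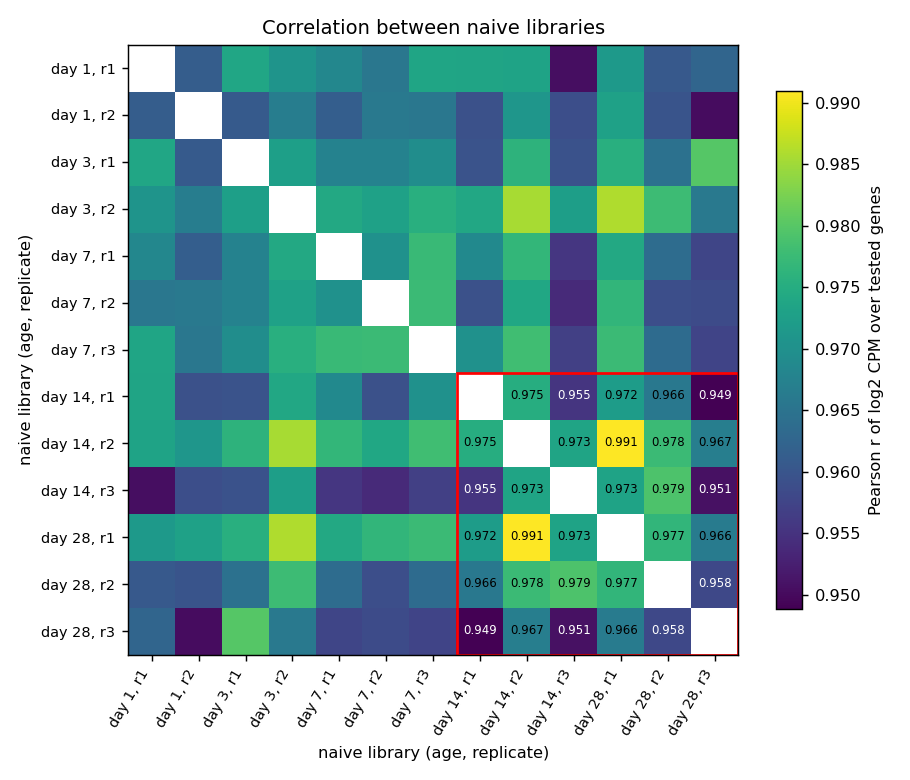
Pearson correlation of log2 CPM over 15359 tested genes for every pair of the 13 naive libraries, by age and replicate, with the colour scale at the right. Inside the red frame (days 14 and 28) the highest value, 0.991, joins a day 14 with a day 28 library, and day 28 replicate 3 has the lowest values.

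No gene differed between day 28 and day 14 past the threshold. Of 15359 genes tested with edgeR's quasi-likelihood test in a fit over all 21 libraries, 0 (0%) had a Benjamini-Hochberg adjusted p under 0.05, and the smallest adjusted p was 1. An unadjusted p under 0.05 was reached by 177 genes (1.15%), 78 higher (0.508%) and 99 lower (0.645%) on day 28. This was less than the share of 0.05 that would on average pass that threshold if no gene differed. DESeq2 and voom with sample weights also called 0 genes, with 259 and 318 at an unadjusted p under 0.05. The median log2 fold change, day 28 minus day 14, was -0.02, with quartiles of -0.22 and 0.13. Since no gene was called, every fold change below is a value and not a change that passed the test.

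The 3 libraries of one age lay wholly apart from the 3 of the other for 267 genes higher on day 28 (1.74%) and for 464 genes lower on day 28 (3.02%). Both shares were below those that a random order of the 6 libraries would give on average. A lack of overlap is thus by itself no evidence of a difference in the genes named below. Of the 177 genes with an unadjusted p under 0.05, the groups did not overlap for 98, and in 67 the highest of the 6 libraries was under 1 CPM. Day 28 replicate 3 was the highest or lowest of the 6 libraries in 117 of the 177 (66.1%, against 48.4% of all tested genes), and day 14 replicate 1 in 88 (49.7%, against 54.3%). Without day 28 replicate 3 the count at an unadjusted p under 0.05 was 63, with 0 genes called.

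How small a difference these libraries could have shown varied with the level of the gene. The 95% interval of the log2 fold change lay inside -1 to 1, that is within 2-fold either way, for 8903 genes (58.0%). That share was 28 of 3198 genes under 1 CPM, 1827 of 3887 from 1 to 10 CPM, 5794 of 6825 from 10 to 100 CPM (84.9%) and 1254 of 1449 above 100 CPM (86.5%). The median half-width of the interval was 0.65, a factor of 1.57. A shift of 2-fold was therefore outside the interval for most genes of medium and high level, and inside it for nearly every gene under 1 CPM.

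**Figure D2:**
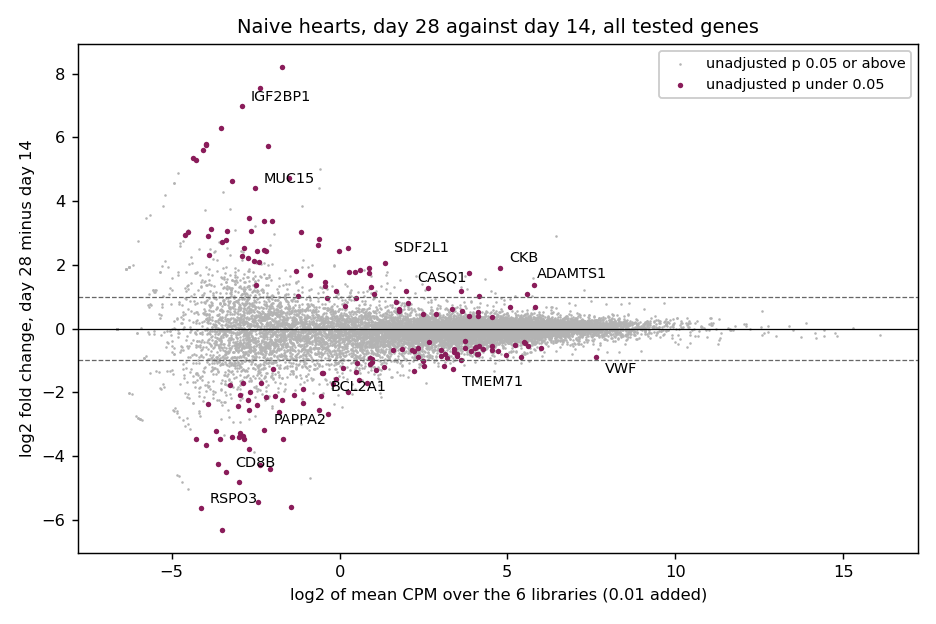
Log2 fold change of each tested gene (y axis, day 28 minus day 14) against its mean level over the 6 libraries (x axis, log2 CPM), with genes at an unadjusted p under 0.05 in purple and dashed lines at 2-fold. Genes with large fitted values have low levels, and fitted values of genes at 0 in one age depend on the fit's prior count.

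Genes that define heart muscle had close levels at both ages. All but 1 of the 14 cardiomyocyte markers in the file were tested, and for 12 of these 13 the interval lay inside 2-fold (median log2 fold change 0.08). MYH7, the slow ventricular myosin heavy chain and the most abundant of them, stood at 21966, 39264 and 60020.4 CPM in replicates 1 to 3 of day 14 and at 35499.8, 43014 and 43224 CPM in those of day 28, a log2 fold change of 0.01 (SE 0.31, 95% interval -0.65 to 0.66). Its lowest and highest values were both day 14 libraries. ACTC1, cardiac actin, had 10135, 10947 and 9819 CPM and then 10458, 9411 and 13135 CPM, and the 2 ages again overlapped. TNNI3, the adult cardiac troponin I and a defining marker of heart muscle, was at 0 counts in all 21 libraries, so it could not be followed here.

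TNNI1, the slow skeletal troponin I that fetal heart muscle uses, had a wide spread. It had 366, 388 and 101 CPM on day 14 and 558, 10.1 and 918 CPM on day 28. Both the highest and the lowest of the 6 values were day 28 libraries, the lowest being the day 28 library of the set of 4. The 7 naive libraries of days 1 to 7 lay between 395 and 1031 CPM, with a median of 692 CPM. Day 28 replicates 1 and 3 were within the range of these younger hearts and day 28 replicate 2 far under it. The log2 fold change of 0.80 (SE 0.87) had an interval of -1.04 to 2.64, and it was -0.00 without day 28 replicate 3. The difference was -3.31 within the set of 4 and 0.93 outside it.

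Other fetal and adult sarcomere isoforms gave no common direction. Of 19 tested members of that list 13 had positive and 6 negative fold changes, none with an unadjusted p under 0.05, and the median was 0.07. MYL4, the atrial and fetal essential light chain, had 36.5, 19.6 and 25.2 CPM on day 14 and 44.6, 29.2 and 169 CPM on day 28. Only day 28 replicate 3 stood above the rest, and the fold change of 1.58 (SE 1.00) became 0.45 without it and was 0.21 within the set of 4. MYH3, the embryonic myosin heavy chain, followed the same library with 2.17, 3.02 and 9.4 CPM on day 28 against 4.19, 1.93 and 2.54 CPM on day 14. ACTA1, skeletal actin, which the young heart also makes, was abundant at both ages, at 10875, 15596 and 16603 CPM and 11252, 22357 and 14875 CPM, with an interval of -0.88 to 1.22 around 0.17.

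CASQ1, the calsequestrin of fast skeletal muscle, was among the few genes of medium level with an unadjusted p under 0.05 (0.0203). Its values were 13.2, 12.4 and 9.74 CPM on day 14 and 11.7, 30.2 and 29.5 CPM on day 28, with replicate 1 of day 28 inside the day 14 range and the other 2 above it. The log2 fold change was 1.01 (SE 0.39), 0.83 without day 28 replicate 3, and 1.63 and 0.54 within the set of 4 and outside it. In the naive hearts of days 1 to 7 it lay between 9.11 and 33.2 CPM, with a median of 14.8 CPM. None of the 5 other tested skeletal muscle markers had an unadjusted p under 0.05 and MYLPF, a fast light chain, was at 0 in all 6 libraries.

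Transcripts of atrial natriuretic peptide and creatine kinase B were far highest in 1 day 28 heart, and those of the B-type peptide were high in 2. NPPA, atrial natriuretic peptide, had 5.49, 18 and 38.4 CPM on day 14 and 52, 31.9 and 375 CPM on day 28. All of these values but the 5.49 CPM of day 14 replicate 1 lay inside the range of the younger naive hearts, 11.8 to 398 CPM. The lower 2 day 28 values lay within or close to the day 14 range, and replicate 3 was far above it. The log2 fold change of NPPA, 2.89 (SE 1.57, interval -0.42 to 6.20), was 1.03 without that library. The difference was -0.27 within the set of 4 and 3.81 outside it. NPPB, the ventricular B-type peptide, had 9.59, 22.3 and 15 CPM and 40.5, 4.19 and 56.9 CPM. Replicates 1 and 3 of day 28 were above every day 14 value and replicate 2 below, so its 2 ages overlapped. The log2 fold change of NPPB was 0.52 without day 28 replicate 3, and the difference was -1.83 within the set of 4 and 1.71 outside it. CKB, the brain-type creatine kinase found in young heart, was even over day 14, at 11.8, 12.3 and 10.6 CPM, and had 16, 7.57 and 107 CPM on day 28 (unadjusted p = 0.0333). The fold change of CKB, 1.91 (SE 0.82), was 0.03 without day 28 replicate 3, and -0.49 within the set of 4 against 1.78 outside it.

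NPPA and MYL4 are also markers of atrial muscle, so the other atrial identity genes were read beside them. SLN, sarcolipin of the atrial calcium pump, was faint in every library, at 0, 0.0147 and 0.112 CPM on day 14 and 0.101, 0.119 and 0.0339 CPM on day 28. BMP10, a growth factor of atrial muscle, was at 0, 0.0295 and 0 CPM and 0.151, 0.0238 and 0.356 CPM, the highest of these in day 28 replicate 3. KCNA5, an atrial potassium channel, had 24.5, 26.6 and 49.2 CPM and 38, 47.7 and 26.1 CPM, with day 28 replicate 3 among the lower values. The summed level of all 10 tested atrial genes was 643 to 1152 CPM on day 14 and 987 to 1511 CPM on day 28, highest in that same library. That sum includes NPPA and MYL4 themselves, at 375 and 169 CPM in day 28 replicate 3. It is therefore no separate reading of the other atrial genes.

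**Figure D3:**
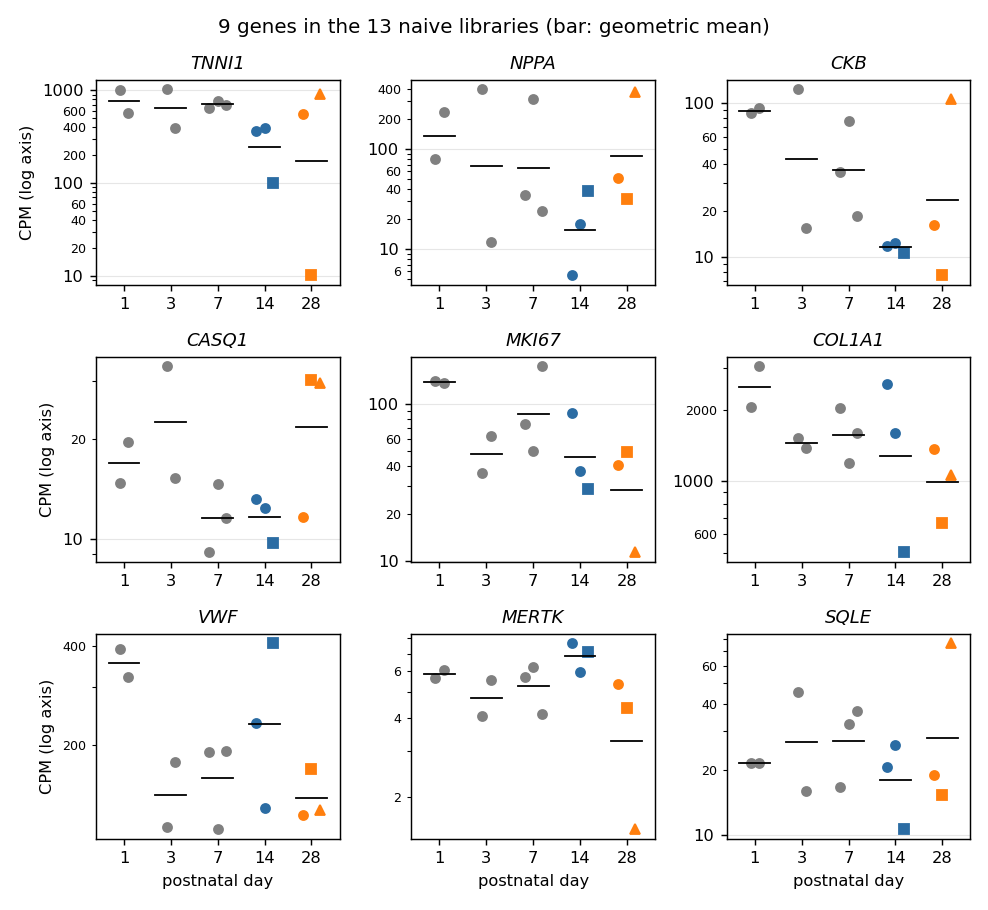
CPM on a log axis against postnatal day for 9 genes in the 13 naive libraries, 1 point per pig, with black bars at the geometric mean of each age, blue for day 14 and orange for day 28. Triangles mark day 28 replicate 3 and squares the 2 libraries of the set of 4, and in every panel but that of VWF, COL1A1 and CASQ1 the triangle is the highest or lowest of the 6 points.

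Genes of excitation, calcium handling and cell contact had medians near 0, with wide intervals for the ion channels. Of the tested members, 15 of 23 calcium handling and T tubule genes, 7 of 24 ion channel genes, 14 of 18 intercalated disc genes and 14 of 23 cardiac transcription factors had an interval inside 2-fold, against 58.0% of all tested genes. Their medians were 0.07, 0.09, 0.08 and 0.11, and no member reached an unadjusted p under 0.05. The share of all tested genes inside 2-fold rose with level. It was 47.0% from 1 to 10 CPM, 84.9% from 10 to 100 CPM and 86.5% above 100 CPM, so 58.0% is a low measure for abundant genes. ATP2A2, the calcium pump of the sarcoplasmic reticulum, had 1913, 5449.8 and 5465 CPM on day 14 and 4945, 4368 and 4297 CPM on day 28. Here day 14 replicate 1 was the low library and the other 5 lay close together. PLN, phospholamban, the inhibitor of that pump, had 374, 552 and 608 CPM and 575, 615 and 586 CPM with the same low library. RYR2, the calcium release channel, ran from 359.7, 1092 and 2052 CPM on day 14 to 986, 1137 and 927 CPM on day 28, so that the spread within day 14 exceeded that within day 28.

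GJA1, connexin 43 of the ventricular gap junction, had a log2 fold change of 0.22 (SE 0.30), with 491, 863 and 1063 CPM on day 14 and 814, 841 and 1152 CPM on day 28. Day 14 replicate 1 was again the lowest library. KCNIP2, a subunit of the transient outward potassium channel, was low in a different heart, with 19.4, 28.6 and 29.2 CPM on day 14 and 20.2, 43.1 and 3.56 CPM on day 28. NKX2-5, the cardiac homeobox factor, was even, at 93.4, 132 and 125 CPM and 125, 119.9 and 128 CPM, a fold change of 0.09 with an interval of -0.30 to 0.48.

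Fuel metabolism did not separate the ages. Fatty acid uptake and oxidation genes had a median log2 fold change of -0.03 with 23 of 30 intervals inside 2-fold, and nuclear subunits of oxidative phosphorylation one of 0.09 with 33 of 35 inside. Glycolysis, glucose transport and glycogen genes had a median of 0.13 with 18 of 28 inside, and citric acid cycle and creatine kinase genes one of 0.15 with 20 of 24 inside. Over all tested genes 58.0% of intervals lay inside 2-fold, but 84.9% did from 10 to 100 CPM and 86.5% above 100 CPM. CPT1B, the muscle enzyme that brings fatty acids into mitochondria, had 511, 558 and 975 CPM on day 14 and 477, 776 and 638 CPM on day 28 (log2 fold change -0.11, SE 0.32). Its highest value was day 14 replicate 3. PPARGC1A, a regulator of mitochondrial growth, had 104, 216 and 179.5 CPM and 194, 173 and 205 CPM, and PDK4, which holds back glucose oxidation, 313, 257 and 365 CPM and 346, 305 and 396 CPM. In each of these the 2 ages overlapped.

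MDH2, malate dehydrogenase of the citric acid cycle, had 1222, 2206 and 2177 CPM on day 14 and 2002, 2423 and 2659 CPM on day 28, and ATP5F1A, a core subunit of ATP synthase, 1607, 2759 and 2455 CPM and 2628, 2693 and 2995 CPM. Day 14 replicate 1 was the low library in both. ALDOC, an aldolase, was lower in 2 of the 3 day 28 hearts, at 32.3, 9.69 and 5.71 CPM against 35.6, 39.1 and 26.9 CPM on day 14, with an interval of -2.45 to 0.27. LDHA, lactate dehydrogenase A, had 88, 153 and 66.1 CPM and 137, 88.5 and 88.6 CPM with no order by age.

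All 13 mitochondrially encoded genes had negative fold changes (median -0.22), and 1 interval lay inside 2-fold. Their summed level was 232882, 179359 and 368209 CPM in replicates 1 to 3 of day 14 and 150184, 379807 and 151320 CPM in those of day 28. The 2 high values belong to the libraries of the set of 4, one of each age, and among the other 4 libraries the day 28 values were the lower. Without day 14 replicate 3 the median was 0.14, and without day 28 replicate 2 it was -0.80, so the direction depended on these libraries. ND5, a subunit of complex I, had 17342, 13370.1 and 31689 CPM and 11329, 28040.4 and 11584 CPM.

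Cell cycle genes spanned a wide range within each age. The 39 tested G2 and mitosis genes had mean log2 CPM of 4.46, 3.63 and 2.15 on day 14 and of 3.57, 3.59 and 2.69 on day 28. So the highest and the lowest library were both of day 14, and the 7 younger naive libraries had 3.38 to 5.09. In all, 38 of the 39 fold changes were negative (median -0.38) and 1 interval lay inside 2-fold. That median turned to 0.28 without day 14 replicate 1. It was -0.91 without the set of 4, -0.12 with a term for that set, and 0.36 without day 28 replicate 3 and with that term, so its direction depended on the libraries used. The 32 tested replication and S phase genes had a median of 0.01, with 17 positive and 15 negative fold changes.

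MKI67, the proliferation marker, had 87.9, 37.4 and 28.8 CPM on day 14 and 40.9, 49.7 and 11.4 CPM on day 28 (log2 fold change -0.60, SE 0.80). Day 14 replicate 1 was the highest and day 28 replicate 3 the lowest. The value was 0.07 without day 14 replicate 1 and -0.18 without day 28 replicate 3, and the difference was 0.78 within the set of 4 and -1.41 outside it. TOP2A, the DNA topoisomerase of dividing cells, gave 77.2, 47.5 and 17 CPM and 45.2, 38.3 and 25.3 CPM, with its lowest value on day 14. UBE2C, the ubiquitin enzyme of mitotic exit, ran from 60.8, 23.3 and 5.4 CPM on day 14 to 17.6, 27.6 and 7.6 CPM on day 28, and CCNB1, the mitotic cyclin, from 40.9, 18.7 and 6.61 CPM to 18.7, 21.5 and 5.76 CPM. TOP2A, UBE2C and CCNB1 differed by 1.17, 2.35 and 1.70 within the set of 4 and by -0.84, -1.70 and -1.41 outside it. The interval for MKI67, -2.29 to 1.10 on the log2 scale, was wide, so these libraries set only broad limits on cycling. MCM2, a part of the replication helicase, was highest in day 28 replicate 3, the library in which MKI67 was lowest: 24.3, 21.4 and 4.41 CPM on day 14 and 21, 9.29 and 31.9 CPM on day 28.

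Inhibitors of the cycle and G1 genes had medians near 0. CDKN1A, the p21 inhibitor, had 7.46, 13.5 and 8.93 CPM and 10.7, 8.48 and 15.1 CPM, and CCND1, a G1 cyclin, 129, 176 and 148 CPM and 134, 191 and 106 CPM, with overlap in both. CDKN2D, the p19 inhibitor, had 16.8, 11.6 and 6.95 CPM and 9.92, 9.98 and 4.17 CPM, a log2 fold change of -0.56 (SE 0.48), with 0.52 within the set of 4 and -1.11 outside it. CDKN2A, the locus of the p16 inhibitor, had counts of 4, 11 and 0 and 1, 1 and 0 (log2 fold change -2.66, SE 1.42). CDK inhibitors and p53 targets had a median of -0.01 over 16 genes, and G1 cyclins, kinases, pocket proteins and MYC one of -0.06 over 18.

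Growth factor and fetal growth genes held some large fitted values, at low counts. IGF2BP1, a fetal RNA-binding protein that holds IGF2 transcripts, had counts of 0, 0 and 0 on day 14 and of 1, 0 and 43 on day 28 (unadjusted p = 0.0103). Nearly all of its reads were in day 28 replicate 3, so its difference is that of 1 heart. In the younger naive hearts it lay at 0 to 0.289 CPM. PAPPA2, a protease that frees IGF from its binding proteins, had 0.147, 0.796 and 0.157 CPM on day 14 and 0.0883, 0 and 0.0169 CPM on day 28 (log2 fold change -3.17, SE 1.01, unadjusted p = 0.00611), with all 3 day 28 values under the day 14 values. Its counts were 8, 54 and 7 and 7, 0 and 1, and the value was -1.90 without day 14 replicate 2 and -5.01 without day 28 replicate 1. The 17 tested genes of the IGF axis had a median of -0.22. IGF1R, the receptor, had 60.5, 80.4 and 139 CPM and 77.5, 94.5 and 92.1 CPM, so that all 3 day 28 values lay inside the day 14 range.

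ERBB4, the neuregulin receptor of cardiomyocytes, ranged over 1.19, 7.64 and 34.2 CPM on day 14 and 7.34, 4.17 and 14 CPM on day 28, so the day 14 hearts alone spanned the whole range. The difference was -3.03 within the set of 4 and 1.73 outside it. FGF16, a heart-enriched growth factor, had 1.67, 3.64 and 2.2 CPM and 3.76, 3.55 and 3.74 CPM. BMP6, a bone morphogenetic protein made by endothelium, had 29, 19.6 and 16.8 CPM and 17.9, 13 and 6.47 CPM (log2 fold change -0.81, SE 0.31, unadjusted p = 0.0201, -0.50 without day 28 replicate 3 and -0.52 without day 14 replicate 1). Imprinted and fetal growth genes had a median of 0.05 over 17 tested genes. MEST, an imprinted gene of fetal tissue, had 5.69, 6.34 and 5.19 CPM and 8.59, 6.62 and 13.6 CPM. DIO3, which inactivates thyroid hormone, was under 1 CPM in all 6.

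Matrix genes had mostly negative fold changes, none with an unadjusted p under 0.05 among collagens, crosslinking enzymes or fibroblast markers. All 14 fibroblast markers were below 0 (median -0.33), as were 15 of 21 collagen chains (median -0.27) and 19 of 23 crosslinking and proteoglycan genes (median -0.21). Over all tested genes the median was -0.02. COL1A1, the main chain of type I collagen, had 2571, 1601 and 502 CPM on day 14 and 1371, 669 and 1062 CPM on day 28 (log2 fold change -0.59, SE 0.78, interval -2.25 to 1.06). It was 0.01 without day 14 replicate 1, and the difference was 0.42 within the set of 4 and -0.75 outside it. Both extremes were day 14 hearts, the lowest being the day 14 library of the set of 4. Without day 14 replicate 1 the medians of the 3 lists were -0.08, 0.01 and 0.05.

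COL3A1, the type III chain of young matrix, had 3951, 3037 and 1467 CPM and 3142, 2236 and 1202 CPM, and ELN, elastin, 410, 207 and 146 CPM and 164, 199 and 129 CPM, so that 1 day 14 heart stood above all others in both. LOX, the enzyme that crosslinks collagen and elastin, had 95.3, 41.4 and 39.7 CPM and 48.4, 31.9 and 20.4 CPM with an unadjusted p of 0.106. POSTN, periostin of active fibroblasts, had the other sign (0.31, SE 0.93, but -0.27 without day 28 replicate 1 and -0.14 without day 14 replicate 3) with 81.8, 79.7 and 17.1 CPM and 122, 27.8 and 70.9 CPM. ADAMTS1, a secreted protease, was the metalloproteinase list's only member with an unadjusted p under 0.05 (0.0256): 37.3, 34.3 and 21.5 CPM on day 14, 54, 30 and 113 CPM on day 28, and a fold change of 1.08 (SE 0.44) that was 0.44 without day 28 replicate 3. In bulk tissue, fewer cells of a type and less RNA per cell cannot be told apart, here and in the paragraphs on vessels and leukocytes.

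Endothelial markers were slightly lower on day 28 in sign for all 19 tested genes (median -0.34), and 9 of their intervals lay inside 2-fold. That median was -0.16 without day 14 replicate 1 and -0.24 without day 28 replicate 3. VWF, von Willebrand factor of larger vessels, had the smallest unadjusted p of the list (0.0166) with 235, 129 and 408 CPM on day 14 and 123, 169 and 127 CPM on day 28. Day 14 replicate 2 lay among the day 28 hearts, and the log2 fold change of -0.88 (SE 0.33) was -1.27 within the set of 4 and -0.48 outside it, and it was -0.39 without day 14 replicate 3. PECAM1, CD31 of all endothelium, differed less (-0.19, SE 0.27), at 457, 358 and 349 CPM and 364, 391 and 264 CPM.

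NOTCH1, an endothelial Notch receptor, had 77.2, 44.4 and 56.6 CPM and 42.9, 43.6 and 39.2 CPM, and SOX18, a vascular transcription factor, 21.5, 12.9 and 12 CPM and 10.7, 10 and 7.99 CPM. In both, all 3 day 28 values were under the day 14 values, with unadjusted p of 0.0596 and 0.0962. ANGPT1, angiopoietin 1 of mural cells, was above every day 14 library in 2 of the 3 day 28 libraries: 1.03, 1.4 and 1.28 CPM on day 14 and 7.85, 0.857 and 3.06 CPM on day 28 (interval -0.31 to 3.65). Smooth muscle and pericyte markers had a median of -0.23 with 8 of 12 intervals inside 2-fold. CNN1, calponin of smooth muscle, was the one with a positive sign (0.81), and it was -0.21 without day 28 replicate 3.

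Lists of leukocyte and immune genes were 5 of the 6 with the lowest medians. One of these 5 was inflammatory cytokines, chemokines and adhesion genes, with -0.52 over 20 genes. T and NK lymphocyte markers had a median log2 fold change of -1.60 over 16 genes, all negative, with 3 at an unadjusted p under 0.05 (0.645% of all tested genes were lower at that p) and 7 whose ages did not overlap (3.02% of all were lower without overlap). The macrophage and monocyte markers had -0.67 over 20 genes, MHC class II genes -0.77 over 6 and complement genes -0.59 over 17. Interferon response genes, a list outside the lowest 6, had -0.45 over 24. Without day 28 replicate 3 the medians of the T and NK, macrophage, MHC class II, complement and interferon lists were -1.04, -0.23, -0.37, -0.19 and -0.14. Without day 14 replicate 1 they were -1.11, -0.47, -0.51, -0.46 and -0.13. The summed level of the macrophage markers was 515, 447 and 527 CPM on day 14 and 464, 458 and 103 CPM on day 28, so 2 of the 3 day 28 hearts were level with day 14.

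PTPRC, the CD45 antigen of all leukocytes, had 22.5, 17.2 and 26.5 CPM on day 14 and 17.3, 12.6 and 2.15 CPM on day 28. CD163, a scavenger receptor of resident macrophages, had 55.6, 71.2 and 92.8 CPM and 71.5, 83.6 and 13.4 CPM, and CSF1R, the receptor for their growth factor, 73.8, 64.5 and 94.2 CPM and 62.7, 68.5 and 13.5 CPM. In each the third day 28 value was by far the lowest. MERTK, which macrophages use to clear dead cells, had 7.66, 5.97 and 7.11 CPM and 5.36, 4.33 and 1.51 CPM, with no overlap between ages. Its log2 fold change was -0.89 (SE 0.44, unadjusted p = 0.058) and -0.51 without day 28 replicate 3.

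Lymphocyte transcripts were scarce in every library. CD3E, a chain of the T cell receptor complex, had 1.38, 0.619 and 3.37 CPM on day 14 and 0.593, 0.691 and 0.0847 CPM on day 28. CD8B, a chain of the cytotoxic T cell coreceptor, had counts of 3, 3 and 18 on day 14 and 1, 0 and 0 on day 28 (unadjusted p = 0.00918). ITGA4, the alpha 4 integrin by which lymphocytes enter tissue, had 7.84, 4.6 and 7.35 CPM and 4.39, 2.26 and 1.12 CPM (log2 fold change -1.34, SE 0.61, unadjusted p = 0.0416), and here too the ages did not overlap. The mean log2 CPM of the 16 T and NK markers was 0.75, -0.21 and 0.82 on day 14 and -0.25, -0.61 and -2.93 on day 28. Naive day 3 replicate 1, the nearest neighbour of day 28 replicate 3, had a similarly low value, -2.67, and the other younger hearts reached up to 0.36.

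GBP1, an interferon-induced GTPase, had 55.6, 18.8 and 29.5 CPM and 18.4, 17.7 and 5.45 CPM, all 3 day 28 values lying under those of day 14. CXCL10, an interferon-induced chemokine, had 14.2, 7.03 and 6.09 CPM and 6.38, 1.64 and 0.271 CPM. ICAM1, an adhesion molecule for leukocytes, had 24.9, 16.4 and 15.1 CPM and 14.8, 10.7 and 9.04 CPM with no overlap (log2 fold change -0.71, SE 0.29, unadjusted p = 0.0281, -0.56 without day 28 replicate 3 and -0.42 without day 14 replicate 1). BCL2A1, a survival factor of leukocytes and activated endothelium, had the smallest unadjusted p of all genes with a symbol (0.00207). It stood at 1.25, 0.929 and 1.15 CPM on day 14 and 0.404, 0.119 and 0.22 CPM on day 28, a log2 fold change of -2.12 (SE 0.58), -2.03 without day 28 replicate 3.

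**Figure D4:**
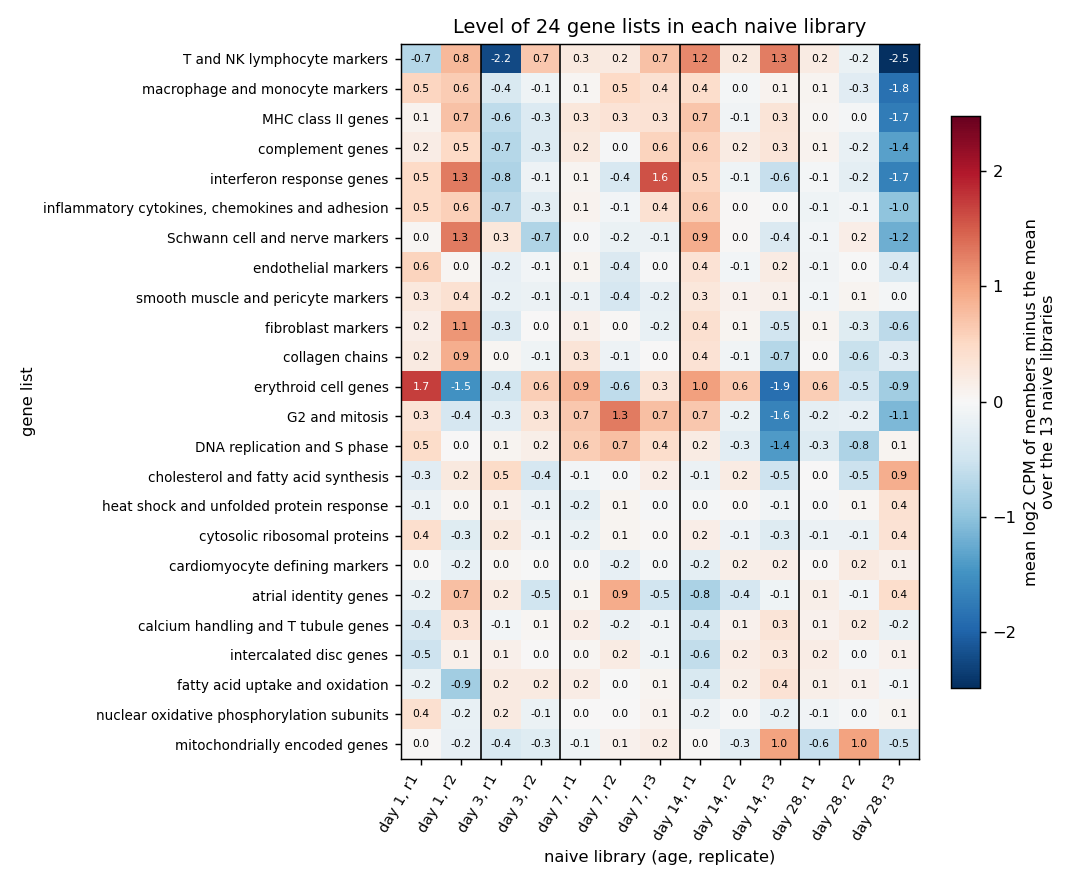
Mean log2 CPM of the tested members of 24 gene lists in each of the 13 naive libraries, minus the mean over these libraries, with the colour scale at the right (red above, blue below). The rightmost column, day 28 replicate 3, is the lowest for the 5 topmost immune lists and the highest for cholesterol synthesis, while day 14 replicate 3 is the lowest for both cell cycle lists.

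Day 28 replicate 3 also held the highest levels of sterol synthesis and endoplasmic reticulum chaperone genes. SQLE, squalene epoxidase, had 20.7, 26 and 10.6 CPM on day 14 and 18.9, 15.3 and 76.1 CPM on day 28. LSS, lanosterol synthase, had 21.9, 29.1 and 19.1 CPM and 23.2, 23.4 and 87.5 CPM. HSPA5, the chaperone BiP, had 222, 293 and 232 CPM and 284, 281 and 703 CPM, and SDF2L1, its partner in the reticulum, 1.51, 0.811 and 0.652 CPM and 1.12, 1.29 and 10 CPM. In all of these the first 2 day 28 hearts lay within the day 14 range. The 21 cholesterol and fatty acid synthesis genes had a median of 0.36 with all libraries and -0.16 without that one, and 27 heat shock and unfolded protein response genes 0.15 and 0.02.

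Cytosolic ribosomal proteins had a median of 0.16 over 44 genes (37 positive), with 42 intervals inside 2-fold, and -0.06 without day 28 replicate 3. Immediate early genes centred on -0.02, with FOS, the transcription factor induced by stimulation, at 4.13, 6.58 and 2.83 CPM and 6.48, 2 and 32.8 CPM, high in that same library. IER2, another immediate early gene, was lower in all 3 day 28 hearts, 4.69, 3.26 and 3.95 CPM against 6.87, 5.43 and 5.73 CPM (unadjusted p = 0.0407). MTHFD2, a mitochondrial folate enzyme, was higher in all 3, 13.2, 16.6 and 17.8 CPM against 12.2, 12.5 and 12.9 CPM, with a log2 fold change of 0.34 (SE 0.29).

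Taking the 58 lists as a whole, none held a called gene, 41 had a median log2 fold change between -0.25 and 0.25, 6 had one below -0.5 and 0 one above 0.5. Their 1079 distinct tested members included 5 higher and 9 lower at an unadjusted p under 0.05 (1.30%, against 1.15% of all tested genes). The 6 lists with the lowest medians were T and NK markers, Schwann cell and nerve markers, MHC class II genes, macrophage markers, complement genes, and inflammatory cytokines and adhesion genes. SOX10, the Schwann cell factor, had 5.64, 2.29 and 2.86 CPM on day 14 and 2.11, 3.07 and 0.525 CPM on day 28. The median of the Schwann cell list, -0.78, was -0.06 without day 14 replicate 1. Without day 28 replicate 3, 2 lists had a median below -0.5, the T and NK markers and the neutrophil markers. The sign of the median turned for 17 lists.

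**Figure D5:**
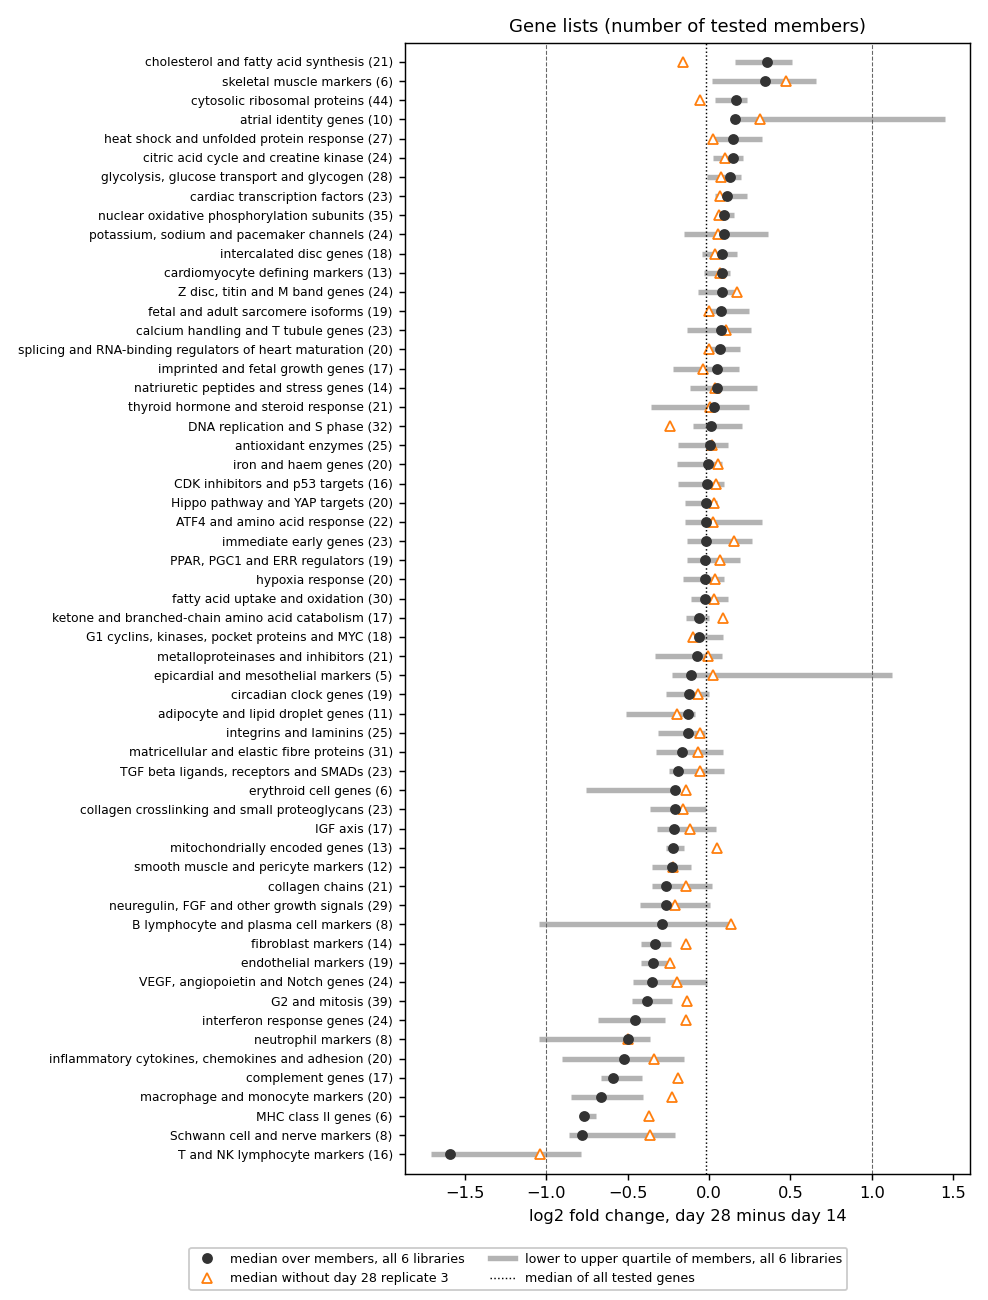
Median log2 fold change (x axis, day 28 minus day 14) of 58 gene lists, with the number of tested members in brackets, grey bars from the lower to the upper quartile and a dotted line at the median of all genes. Black points use all 6 libraries and open triangles leave out day 28 replicate 3. Most lists lie near 0, and the 6 lowest move toward 0 without that library. The neutrophil markers just above them do not (-0.498 and -0.501).

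Several genes outside the lists had a small unadjusted p at a faint level. Their places are those of RefSeq on the Sscrofa11.1 assembly. CLSTN2, a calsyntenin (chromosome 13 from 80789239 to 81461348), had 0.0551, 0.0442 and 0.045 CPM on day 14 and 0.177, 0.333 and 0.186 CPM on day 28 (log2 fold change 2.21, SE 0.64, unadjusted p = 0.00325). ARHGAP20, a GTPase-activating protein (chromosome 9 from 38471049 to 38582221), had 2.24, 1.33 and 2.47 CPM and 0.971, 0.762 and 0.593 CPM (unadjusted p = 0.00407). In both, the ages did not overlap. NPAS3, a transcription factor (chromosome 7 from 65924986 to 66800820), had 0.0735, 0.059 and 0.045 CPM and 0.227, 0.262 and 0.525 CPM, also without overlap, but from counts of 4, 4 and 2 and 18, 11 and 31.

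TMEM71, a membrane protein (chromosome 4 from 8467572 to 8516316), had the highest level of the 10 lower genes with the smallest p. It had 20.8, 10.5 and 12.6 CPM on day 14 and 9.32, 4.14 and 4.54 CPM on day 28, with a log2 fold change of -1.28 (SE 0.44, unadjusted p = 0.00976). The value was -1.11 without day 28 replicate 3, -1.59 within the set of 4 and -1.18 outside it. MYOC, myocilin, had 1.27, 0.31 and 0.27 CPM and 0.139, 0.214 and 0.0847 CPM, and ENPP3, an ectoenzyme, 1.03, 0.575 and 0.562 CPM and 0.126, 0.214 and 0.237 CPM, again without overlap. None of these genes passed the adjustment over 15359 genes.

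Infarcted hearts of the same ages share no sample with the naive hearts, so the difference between the 2 changes was tested. In this contrast, infarcted day 28 minus day 14 less naive day 28 minus day 14, edgeR called 0 genes (0%), with a smallest adjusted p of 0.323. An unadjusted p under 0.05 was reached by 1781 genes (11.6%). DESeq2 called 33 and voom 0. Within the infarcted hearts 6 genes (0.0391%) differed between the ages, 4 higher and 2 lower on day 28. Only 2 infarcted hearts of day 28 were there, and 1 of them belonged to the set of 4.

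The gene nearest to a call in that contrast was ZFP36L2, an RNA-binding protein that speeds the decay of transcripts. In naive hearts it had 149.6, 125 and 119 CPM on day 14 and 132, 101 and 98.4 CPM on day 28, and in infarcted hearts 93.9, 151 and 110.4 CPM and 309 and 336 CPM. Its log2 fold change was -0.25 in naive hearts and 1.45 in infarcted hearts, where it rose (adjusted p = 0.0269, edgeR), and the difference of 1.69 (SE 0.29) had an adjusted p of 0.323. GADD45G, a growth arrest gene, had 59.8, 84.3 and 85.5 CPM and 77.8, 107 and 63.3 CPM in naive hearts and 33, 26.6 and 21 CPM and 142 and 91.4 CPM in infarcted hearts. It rose in infarcted hearts by 2.12 (SE 0.29, adjusted p = 0.0219, edgeR), while the naive value was 0.11 (SE 0.26).

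NPC2, a carrier of cholesterol in lysosomes, was even in naive hearts, at 28.9, 27.8 and 24.8 CPM and 27.7, 24.8 and 25.6 CPM, and rose in infarcted hearts from 24.4, 38.5 and 20.8 CPM to 51.6 and 115 CPM (adjusted p = 0.0423, edgeR). ACSL3, which activates fatty acids, had 28.4, 38.2 and 36.9 CPM and 40, 33.2 and 31.2 CPM in naive hearts, and fell in infarcted hearts from 45.6, 40.4 and 53.8 CPM to 21 and 21.2 CPM (adjusted p = 0.0341, edgeR). POPDC2, a membrane protein of heart muscle, had 101, 190.1 and 156 CPM and 190, 165 and 215 CPM in naive and 235, 136 and 258 CPM and 79.8 and 85.9 CPM in infarcted hearts, a difference of -1.69 (SE 0.38, adjusted p = 0.397, edgeR). Each of these differences between the changes missed the threshold.

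The preceding interval, day 14 minus day 7 in naive hearts, shares the day 14 libraries, so its values are only set beside those above. It also gave 0 called genes (0%, edgeR), with 1357 at an unadjusted p under 0.05. TNNI1 had a log2 fold change of -1.31 (SE 0.88) over the earlier interval and 0.80 over the later one. For CKB the values were -1.91 (SE 0.82) and 1.91, and for MYL4 -2.91 (SE 1.04) and 1.58. MKI67 had -0.95 (SE 0.81) and then -0.60, and COL1A1 -0.04 (SE 0.78) and then -0.59.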

How the data were processed

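Deposited read counts per gene for 21 pig heart libraries were used as the authors made them. Per the submitters' processing notes, Trim Galore, STAR 2.5.2, HTSeq 0.6.1 and DESeq2 were named with the Sscrofa11.1 build, and strand use in counting is not given in the sources used here. Library totals were 37002909 to 95559841 counts over the series. Samples were grouped by label and day, 8 groups in all, with replicates numbered in accession order, which pairs nothing. The members and the gene lists were chosen with earlier results of these data known.

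Genes passing edgeR's filterByExpr (15359 of 25880, of which 13709 had a symbol) were scaled by TMM and fitted with edgeR 4.0.16 (robust quasi-likelihood, R 4.3.3, group as the only term, 13 residual degrees of freedom). The contrast day 28 minus day 14 in naive hearts was tested two-sided and Benjamini-Hochberg adjusted over all tested genes, with a call at adjusted p under 0.05. Unadjusted p, standard errors and 95% intervals come from that fit and are per gene, with no correction. CPM are TMM-scaled counts per 1000000 counts. Of the list symbols, 1108 matched directly, 7 more only through the name table of older symbols, and 62 did not match and were not analysed here. Named genes were all anchor genes, the 2 list members of smallest p per list, the 10 genes with a symbol of smallest p in each direction, and 10 from the contrast with infarcted hearts. A few genes that these rules pick are not reported here. Other genes were named as list members to show levels, after their values were seen. Alternatives were RLE scaling, TMM without mitochondrially encoded genes, DESeq2 1.42.0, voom with sample weights (limma 3.58.1), no filter, fewer libraries, a term for the set of 4, and leaving out single libraries. Leaving out day 28 replicate 3 together with a term for the set of 4 was added after seeing the data. The fit was tested on simulated counts. Drawings used matplotlib.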

Additional observations from a re-analysis of the deposited data

How the results depend on the processing

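No gene was called between naive day 28 and day 14 under any of the alternatives run. The count at an unadjusted p under 0.05, 177 as reported, was 318 with voom and sample weights, 273 from the 13 naive libraries, 383 without the set of 4 and 59 without day 28 replicate 3 with a term for the set of 4. Leaving out single libraries gave 63 to 445, lowest without day 28 replicate 3 and highest without day 28 replicate 1. It was 300 without day 14 replicate 2 and 366 without day 28 replicate 2. Higher and lower genes numbered 78 and 99 as reported, 99 and 87 with TMM without mitochondrially encoded genes, and 98 and 29 without day 14 replicate 1. No scaling moved the median of all genes by 0.1. For infarcted minus naive hearts, 0 genes were called as reported, 33 with DESeq2, 143 without the set of 4 and 0 to 92 with single libraries left out, the highest without the first infarcted heart of day 28. No paired analysis was possible because the replicate numbers were given in accession order and the labels pair no animals.

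Of 2469 alternative values for 156 named genes, 2306 stayed close, 141 moved and 22 in 15 genes reversed. Close means within the SE of the reported value. A change of sign counted as reversed only where the reported value was larger than its SE. Sign changes of smaller values are thus not among the 22. With 1 library left out, ERBB4, for example, ran from -1.31 to 0.97 and UBE2C from -1.28 to 0.31. With voom SQLE was -0.0898, TNNC2 -0.41, CTNNB1 -0.0327, CACNA1H 0.0138 and ADIPOQ 1.22. Without day 28 replicate 3 and with the term, FOS was -0.0688, TNNC2 -0.16, CDKN2D 0.0142 and MYH3 -0.15. Without the set of 4 ADIPOQ was 2.36. With 1 library left out at a time the ranges were FOS -0.0803 to 2.15, SQLE -0.16 to 1.34, COL11A1 -2.08 to 0.13, TNNC2 -0.16 to 0.93, PCCA -0.66 to 0.11, COX8A -0.0472 to 0.59, CNN1 -0.21 to 1.17, LSS -0.0041 to 1.28, SLC7A5 -0.11 to 1.91, MYH3 -0.15 to 1.18, BHLHE41 -0.70 to 0.0196 and ADIPOQ -6.42 to 1.92. Libraries left out leave 2 against 3 hearts. The cause was not tested. Depth limits genes under 1 CPM most: 28 of 3198 had an interval inside 2-fold.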

Other observations

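HOXA3 and HOXA4, of the HOXA cluster, whose genes mark position along the body axis, were found in some hearts and not in others. HOXA3 had 0 counts in all 3 day 14 hearts, and 62, 41 and 0 counts in replicates 1 to 3 of day 28. HOXA4 had 1, 0 and 0 counts on day 14 and 31, 38 and 0 on day 28. The naive day 3 replicate 2 heart had 35 counts of HOXA3 and 27 of HOXA4. The first infarcted heart of day 14 had 100 and 40, and the first infarcted heart of day 28 had 34 and 45. HOXA5, of the same cluster, and HOXB2, of another, were present in all 6 hearts. HOXA5 had 9, 14 and 4 counts on day 14 and 16, 24 and 6 on day 28. HOXB2 had 106, 101 and 45 counts on day 14 and 178, 127 and 56 on day 28. HOXB4, of the cluster of HOXB2, had 2, 2 and 2 counts on day 14 and 23, 13 and 1 on day 28. The first 2 day 28 hearts stood at 0.290 and 0.310 CPM of HOXB4. Naive day 7 replicate 1 had 0.297 CPM, and the other naive hearts of days 1 to 7 had 0.0214 to 0.187 CPM.

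ADIPOQ, adiponectin of fat cells, had counts of 1, 0 and 137 in the day 14 hearts and 6, 0 and 1 in the day 28 hearts, so nearly all of its reads lay in day 14 replicate 3. UPK1B, a uroplakin also found in mesothelium, had 0.551, 0.457 and 0.112 CPM and 0.908, 0.476 and 1.41 CPM. RSPO3, a Wnt signal enhancer, had counts of 9, 8 and 0 on day 14 and 0, 0 and 0 on day 28. LRIT3, a membrane protein, had counts of 0, 1 and 0 and 0, 7 and 24. These genes were picked for these values, and no test was made of them beyond the fit.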
